A study of Mus musculus with 2 samples.

Results

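The genes described here are 9 genes of plasma membrane repair, namely Dysf, Myof, Trim72, Ano5, Anxa1, Anxa2, Anxa5, Anxa6 and Capn3. They were taken by gene symbol from the deposited transcript tables, and all 9 were found among 55536 annotated Ensembl genes. Total RNA of the gastrocnemius, a mainly fast-twitch muscle of the calf, had been sequenced from 2 male B6CASTF1/J mice aged 36 days. Both animals belong to 1 group, with 300 ng of RNA per library and ERCC spike-in RNAs, and the labels name no treatment, transgene or deletion. Both carry the same donor entry in the labels but have their own biosample and biological replicate numbers, so the spread between them is taken as that of separate animals and may be partly technical. B6CASTF1/J is a first-generation hybrid, and the deposited values are not split by parental allele. They were made against mm10, and how well the reads of each allele matched it was not tested. There is no contrast between groups in this design. The report therefore gives the level of each gene, the transcript forms behind that level and how far the libraries of replicates 1 and 2 lay apart, without p-values.

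A contracting muscle fibre tears its plasma membrane, and calcium entering through the tear starts the repair. Dysferlin, the product of Dysf, is a calcium-binding membrane protein needed to reseal the tear, and its loss causes limb-girdle muscular dystrophy and Miyoshi myopathy in humans. Trim72, a ubiquitin ligase of striated muscle, gathers vesicles at the injury, while annexins bind phospholipid in the presence of calcium and form a cap over it. Ano5, of the anoctamin family of membrane proteins, and Capn3, a calpain protease of muscle bound to titin, are each lost in further forms of human limb-girdle dystrophy.

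Several of these genes have short coding exons that some transcripts skip, and the estimated use of those exons is one way in which their transcript forms differ. They are printed here because each adds or removes a run of whole codons, and the values in the later paragraphs refer to them. The sequences come from the M21 transcripts (mm10) in the sense of the gene, 5′ to 3′, with the optional exon in capitals and 12 bases of the neighbouring exons in lower case. For Anxa6 the junction of the transcript without the exon is shown underneath.
Dysf exon 6 of Dysf-215, 93 bases, chr6:84064471-84064563, plus strand: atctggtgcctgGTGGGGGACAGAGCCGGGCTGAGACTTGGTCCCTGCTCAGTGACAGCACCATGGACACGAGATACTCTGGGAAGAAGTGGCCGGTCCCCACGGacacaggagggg
Dysf exon 17 of Dysf-204, 42 bases, chr6:84096477-84096518, plus strand: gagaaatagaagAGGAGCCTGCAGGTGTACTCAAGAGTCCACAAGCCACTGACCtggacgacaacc
Dysf exon 41 of Dysf-215, 63 bases, chr6:84157139-84157201, plus strand: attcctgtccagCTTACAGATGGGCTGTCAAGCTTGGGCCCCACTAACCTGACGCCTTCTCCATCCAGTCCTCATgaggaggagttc
Myof exon 17 of Myof-211, 39 bases, chr19:37969907-37969945, minus strand: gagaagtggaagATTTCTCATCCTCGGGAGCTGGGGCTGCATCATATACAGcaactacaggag
Ano5 exon 4 of Ano5-201, 42 bases, chr7:51535448-51535489, plus strand: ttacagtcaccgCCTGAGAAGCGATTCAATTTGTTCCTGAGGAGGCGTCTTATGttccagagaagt
Anxa6 exon 21 of Anxa6-202, 18 bases, chr11:54987051-54987068, minus strand: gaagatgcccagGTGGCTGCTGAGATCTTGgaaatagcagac
Anxa6 junction of Anxa6-201, which lacks those 18 bases: gaagatgcccaggaaatagcagac
Capn3 exon 6 of Capn3-202, 144 bases, chr2:120486333-120486476, plus strand: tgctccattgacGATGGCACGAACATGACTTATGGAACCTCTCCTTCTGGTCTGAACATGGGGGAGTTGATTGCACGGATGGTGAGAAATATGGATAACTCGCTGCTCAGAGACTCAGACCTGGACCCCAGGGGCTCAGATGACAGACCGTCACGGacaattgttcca
Capn3 exon 15 of Capn3-202, 18 bases, chr2:120498968-120498985, plus strand: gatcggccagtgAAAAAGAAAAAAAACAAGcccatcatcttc
Capn3 exon 16 of Capn3-202, 114 bases, chr2:120501211-120501324, plus strand: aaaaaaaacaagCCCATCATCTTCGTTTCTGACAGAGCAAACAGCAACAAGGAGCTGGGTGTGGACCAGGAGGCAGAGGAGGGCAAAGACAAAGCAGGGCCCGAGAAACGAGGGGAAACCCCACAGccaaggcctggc

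Replicate 1 had 36952277 expected counts and replicate 2 had 38754338, of which the ERCC sequences took 0.614% and 0.527%. Levels are given as deposited TPM, which are relative abundances per length with an equal total for both libraries. The 10 muscle fibre genes used to check the tissue, such as Acta1, Ckm and Myh4, were all detected. Together they had 95696 TPM in replicate 1 and 100755 in replicate 2. The libraries differed for some other cell types, and the summed level of 9 Schwann cell markers was 477 TPM in replicate 1 and 109 in replicate 2. Neutrophil markers, 6 in number, were near 0 in both libraries, at a summed 0.24 and 0.21 TPM with Ly6g listed at 0. In whole tissue, fewer cells of a type and less RNA per cell cannot be told apart.

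All 9 membrane repair genes were detected, and together they had 336 TPM in replicate 1 and 323 in replicate 2 (329 ± 9.41, SD, n = 2). Trim72 had the highest level and Myof the lowest, with means of 83.8 and 2.35 TPM. From high to low mean TPM the order was Trim72, Anxa6, Capn3, Ano5, Dysf, Anxa2, Anxa5, Anxa1 and Myof. Capn3 and Ano5 overlapped in their ranges over the animals, as did Anxa2 and Anxa5, and the other neighbours in the order did not. Trim72 ranked 543 and Myof 8352 among 22028 protein-coding genes by mean TPM.

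**Figure D1:**
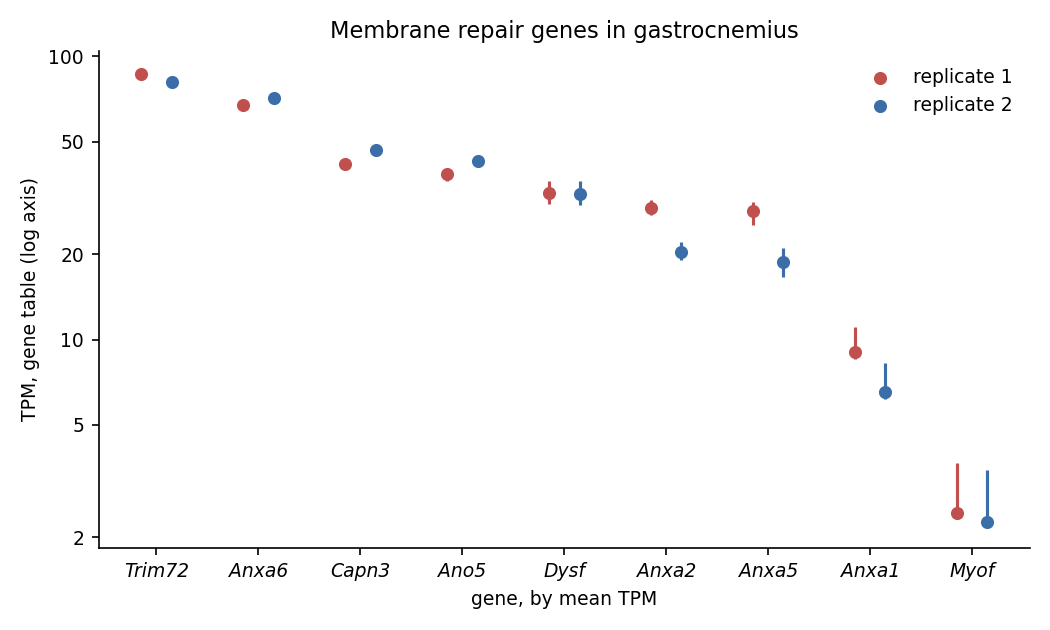
Level of each membrane repair gene in TPM on a log axis, with replicate 1 on the left and replicate 2 on the right of each pair. Points are deposited TPM and lines the deposited credibility intervals, which cover read assignment and counting within 1 library. Trim72 lay at 86.6 and 81.1 TPM and Myof at 2.43 and 2.27 TPM, while Anxa2, Anxa5 and Anxa1 showed the widest gaps between the animals.

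Between the animals, 7 of the 9 genes had credibility intervals that did not overlap, whatever the size of the difference. The same held for 18.9% of the 11632 genes compared, those with a mean expected count of at least 50 (the tested genes). The deposited intervals narrow as reads increase, and the 9 genes had mean expected counts of 362 to 6646. By direction, Trim72, Anxa1, Anxa2 and Anxa5 were higher in replicate 1, as were 9.39% of tested genes, and Anxa6, Capn3 and Ano5 were higher in replicate 2, as were 9.50% of tested genes. None of the 9 also differed by at least 2-fold, a criterion that 2.21% of tested genes met, with 1.76% higher in replicate 1 and 0.447% higher in replicate 2. With 1 animal on each side these are descriptions of the libraries, and no test over animals is possible.

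The log2 ratio of TPM + 0.1, replicate 1 over replicate 2, had a median of 0.09 over the 9 genes and of -0.0049 over all tested genes. Dysf, Trim72, Ano5, Anxa6 and Capn3 had ratios between -0.16 and 0.09, and their summed level was 267 TPM in replicate 1 and 275 in replicate 2. Anxa1, Anxa2 and Anxa5 had ratios of 0.46, 0.51 and 0.60, and their summed level was 66.7 TPM in replicate 1 and 45.7 in replicate 2. This split of the genes was not planned, so the sums only describe the genes named. Myof had a ratio of 0.09, which ran from 0.07 to 0.45 over 9 other settings. A size of 1.25-fold was not among the planned criteria, so its shares only describe the ratios and support no grouping of the genes. At least 1.25-fold with intervals apart and higher in replicate 1 described Anxa1, Anxa2 and Anxa5 and 7.26% of tested genes. In the opposite direction that size described 0 of the 9 and 4.76% of tested genes.

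**Figure D2:**
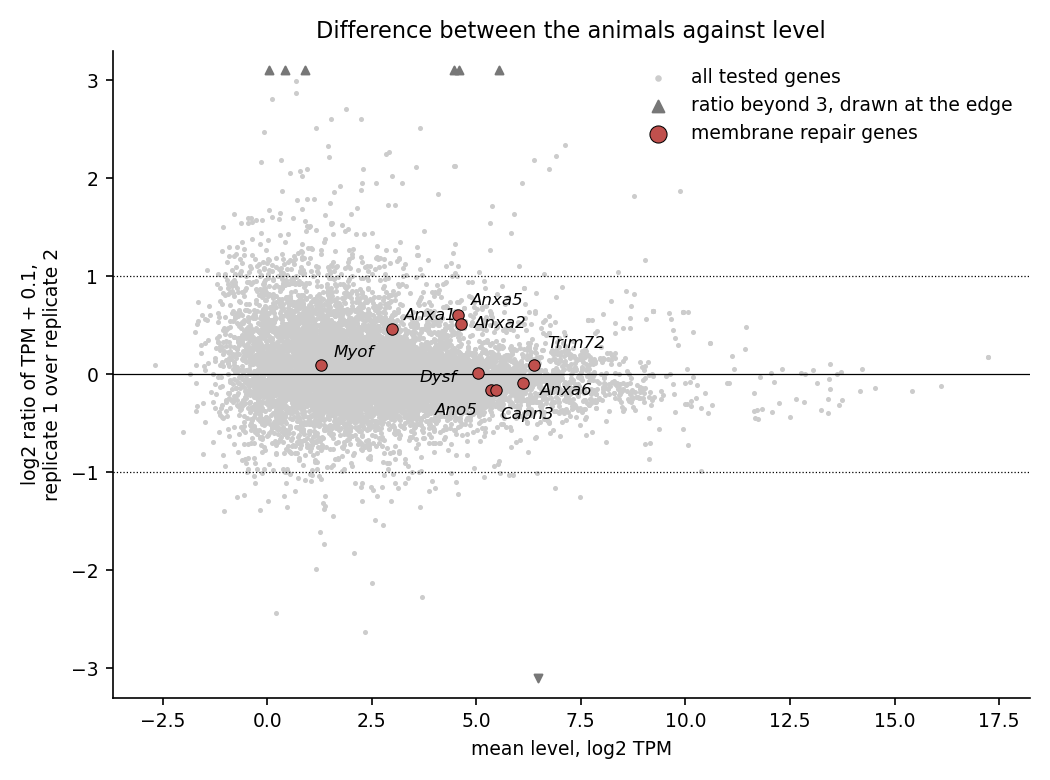
Log2 ratio of TPM + 0.1, replicate 1 over replicate 2, against mean level in log2 TPM for 11632 tested genes in grey and the 9 membrane repair genes in red. Dotted lines mark a 2-fold difference, and triangles stand for genes with ratios beyond the axis. Anxa1, Anxa2 and Anxa5 lie between 0.46 and 0.60, and the other 6 genes between -0.16 and 0.09 on this scale.

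Dysf lies on chr6:84008590-84211060, plus strand (mm10), and had 33.0 TPM in replicate 1 and 32.8 in replicate 2 (32.9 ± 0.170, SD, n = 2). Its log2 ratio was 0.01 and its intervals overlapped, and the ratio ran from -0.11 with ERCC scaling to 0.10 in the second transcript table. Myof encodes myoferlin, the ferlin of fusing myoblasts and endothelial cells, and lies on chr19:37899036-38043577, minus strand. Myof had 2.43 TPM in replicate 1 and 2.27 in replicate 2 (2.35 ± 0.113), from 431 and 345 expected counts. Its TPM ratio was nearer to 1 than its count ratio because the effective length assigned to the gene was 5622 bases in replicate 1 and 4805 bases in replicate 2. The TPM of Myof in replicate 1 also lay just below its own deposited interval of 2.50 to 3.65. That was not particular to Myof, since Acta1 in replicate 1 had 22669 TPM with an upper bound of 22246. The level of Myof is uncertain because its effective length differed between the libraries. The log2 ratio of Myof was 0.09 in the gene table, 0.38 in the second transcript table, 0.45 over protein-coding transcripts only and 0.31 with TMM-scaled counts, and it was positive in each of 9 other settings.

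Within the family of 6 ferlins, Dysf carried 91.5% ± 1.07 of the summed TPM and Myof 6.53% ± 0.204. Fer1l6 had 0.94 TPM in replicate 1 and 0.47 in replicate 2. Otof, the ferlin of hair cell synapses, had 0.01 and 0.02 TPM, and Fer1l4 and Fer1l5 were listed at 0 in both animals.

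The coding transcripts of Dysf begin at a pair of separate first exons, whose starts lie at 84008590 to 84008915 and at 84019385 to 84019389 on chromosome 6. Transcripts from the upstream start carried 61.8% of coding Dysf TPM in replicate 1 and 64.9% in replicate 2. Those from the downstream start carried 38.2% and 35.1%. The second transcript table gave the same order, with 67.0% and 81.1% from the upstream start. As both starts are in use by this estimate, the 250 bases before each RefSeq start (GRCm38.p6, plus strand) are shown, with any GC box (GGGCGG, either strand) in capitals.
Dysf upstream start, chr6:84008348-84008597: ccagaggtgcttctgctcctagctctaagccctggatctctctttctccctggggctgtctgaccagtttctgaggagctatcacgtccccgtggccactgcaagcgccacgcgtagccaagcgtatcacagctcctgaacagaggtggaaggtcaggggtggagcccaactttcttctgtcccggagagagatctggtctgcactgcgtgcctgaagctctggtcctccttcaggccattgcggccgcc
Dysf downstream start, chr6:84019136-84019385: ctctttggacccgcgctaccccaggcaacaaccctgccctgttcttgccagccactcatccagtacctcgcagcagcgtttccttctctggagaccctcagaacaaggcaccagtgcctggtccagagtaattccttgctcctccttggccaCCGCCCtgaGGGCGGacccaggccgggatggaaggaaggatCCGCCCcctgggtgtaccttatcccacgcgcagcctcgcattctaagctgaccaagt
The downstream window holds 3 GC boxes and the upstream window none, while 32.7% of 32851 RefSeq windows of the same length hold at least 1. Neither window holds an E-box (CANNTG), which 66.2% of windows hold, a CCAAT box (33.8%) or a TATA box (TATAAA, 12.4%). GC content was 60.0% upstream and 61.2% downstream, and its median over all windows was 52.4%. These matches describe letters only and say nothing on binding.

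The leading Dysf transcript was Dysf-204, from the upstream start, with 32.9% of Dysf TPM in replicate 1 and 33.7% in replicate 2. The downstream form Dysf-202 followed with 19.6% and 22.1%. A noncoding transcript of 404 bases at the 3′ end of the gene, Dysf-207, took 29.3% and 31.9% of Dysf TPM. By counts Dysf-207 took 2.04% in replicate 1 (Wilson 95% interval 1.66 to 2.49) and 2.27% in replicate 2 (1.87 to 2.75). These intervals leave out the uncertainty of assigning reads to transcripts. TPM divides by transcript length, so this short form weighs more in TPM than in counts, and the second transcript table gave it 16.7% and 9.04%. Counting protein-coding transcripts only, Dysf had 21.1 TPM in replicate 1 and 20.6 in replicate 2. That places it below Anxa2 in mean level, and the second transcript table also places Dysf, at a mean of 38.4 TPM, below Anxa2, at 39.1 TPM. This order of the means comes from replicate 1, since in replicate 2 Dysf stood above Anxa2 in both settings, at 20.6 against 19.9 TPM over protein-coding transcripts and at 37.1 against 28.3 TPM in the second transcript table.

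The 3 optional Dysf exons printed above were used to different extents. Exon 17, of 42 bases, was in 86.9% of coding Dysf TPM in replicate 1 and 90.9% in replicate 2. Exon 6 of Dysf-215, of 93 bases, was in 5.59% and 9.12%. Exon 41 of Dysf-215, of 63 bases, was in 9.0% and 11.3%. A further exon of 30 bases, exon 36 of Dysf-204, was in all coding TPM of both animals. The second transcript table gave means of 88.2% for exon 17, 11.5% for exon 6 and 13.7% for exon 41. In human muscle an optional exon of DYSF carries a calpain cleavage site, and its match to any of these mouse exons was not examined here.

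For Myof, the leading transcript was Myof-211 in the first transcript table, with 44.3% of Myof TPM in replicate 1 and 42.9% in replicate 2. In the second transcript table it was Myof-201, with 41.1% and 23.4%. Exon 17 of Myof-211, of 39 bases, was included in 58.1% and 69.8% of coding TPM in the first table, but in 37.0% and 53.7% in the second. Both tables thus had a lower share in replicate 1, and for replicate 1 they disagreed on whether most coding Myof RNA held the exon.

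**Figure D3:**
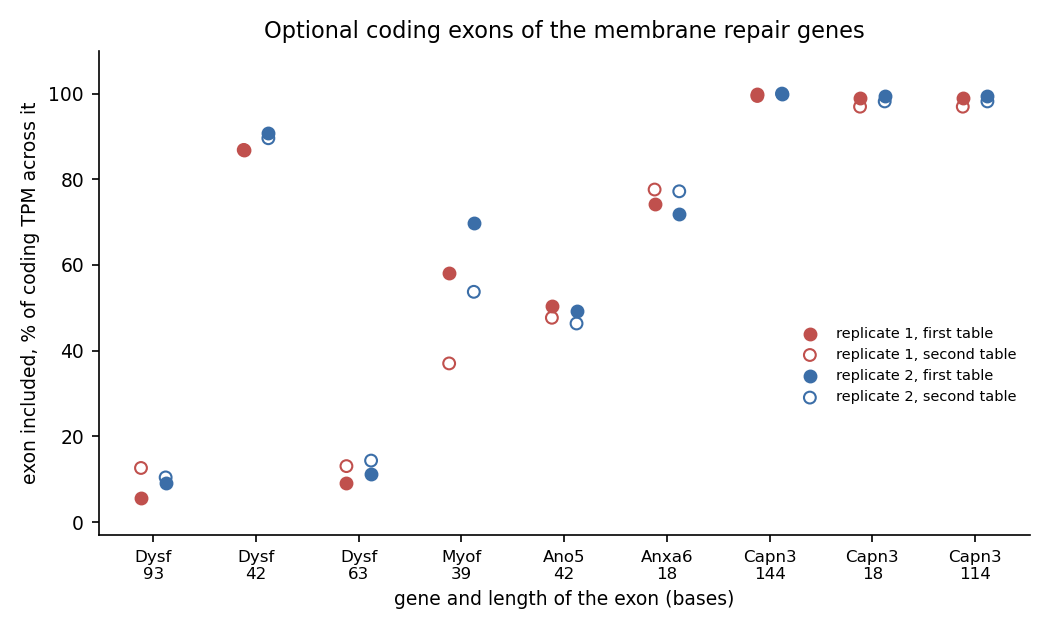
Share of coding TPM that includes each optional exon, by gene and exon length in bases, with replicate 1 on the left and replicate 2 on the right of each pair. Filled points are the first transcript table and open points the second. The 3 Capn3 exons lie at 96.9% or above in every library, exon 17 of Dysf (42 bases) between 86.9% and 90.9%, the other Dysf exons under 15%, and the tables differ most for Myof.

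Trim72, on chr7:128003949-128011033, plus strand, had 86.6 TPM in replicate 1 and 81.1 in replicate 2 (83.8 ± 3.90, SD, n = 2). Its log2 ratio was 0.09, and -0.067 with ERCC scaling, so its direction turned with the scaling. Its coding RNA was almost wholly Trim72-202, with 97.8% of Trim72 TPM in replicate 1 and 100% in replicate 2. The other form, Trim72-201, starts further downstream but has the same coding length of 1431 bases, and it had 1.91 TPM in replicate 1 and was listed at 0 in replicate 2.

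Ano5, on chr7:51511029-51598709, plus strand, had 38.4 TPM in replicate 1 and 42.8 in replicate 2 (40.6 ± 3.13, SD, n = 2). Its log2 ratio was -0.16 with intervals apart. Among 10 anoctamins it carried 49.7% ± 3.45 of the summed TPM. Ano10 had 17.9 TPM in replicate 1 and 17.7 in replicate 2, and Ano6, a phospholipid scramblase, had 17.7 and 14.6 TPM. Ano8 and Ano1, the calcium-activated chloride channel of epithelia and smooth muscle, had 5.78 and 0.970 TPM on average. The 4 anoctamins tested besides Ano5 had a median log2 ratio of 0.05, and none had intervals apart, beside 18.9% of all tested genes. Ano9 was listed at 0 in both animals.

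By TPM, Ano5 was split almost evenly between transcripts with and without exon 4. Ano5-201, with the exon of 42 bases, had 19.3 TPM in replicate 1 and 21.1 in replicate 2, while Ano5-203, without it, had 17.2 and 20.5 TPM. Exon 4 was thus included in 50.3% of Ano5 TPM in replicate 1 and 49.3% in replicate 2, and the second transcript table gave 47.7% and 46.3%. These transcripts also differ in their annotated ends, since Ano5-201 is 7785 bases long and Ano5-203 is 2753 bases long. TPM divides by length, and by counts Ano5-201 took 74.2% of Ano5 in replicate 1 and 73.6% in replicate 2. The estimated shares therefore do not rest on the exon alone. Ano5-202, which lacks exon 21, had 1.83 TPM in replicate 1 and 1.19 in replicate 2.

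**Figure D4:**
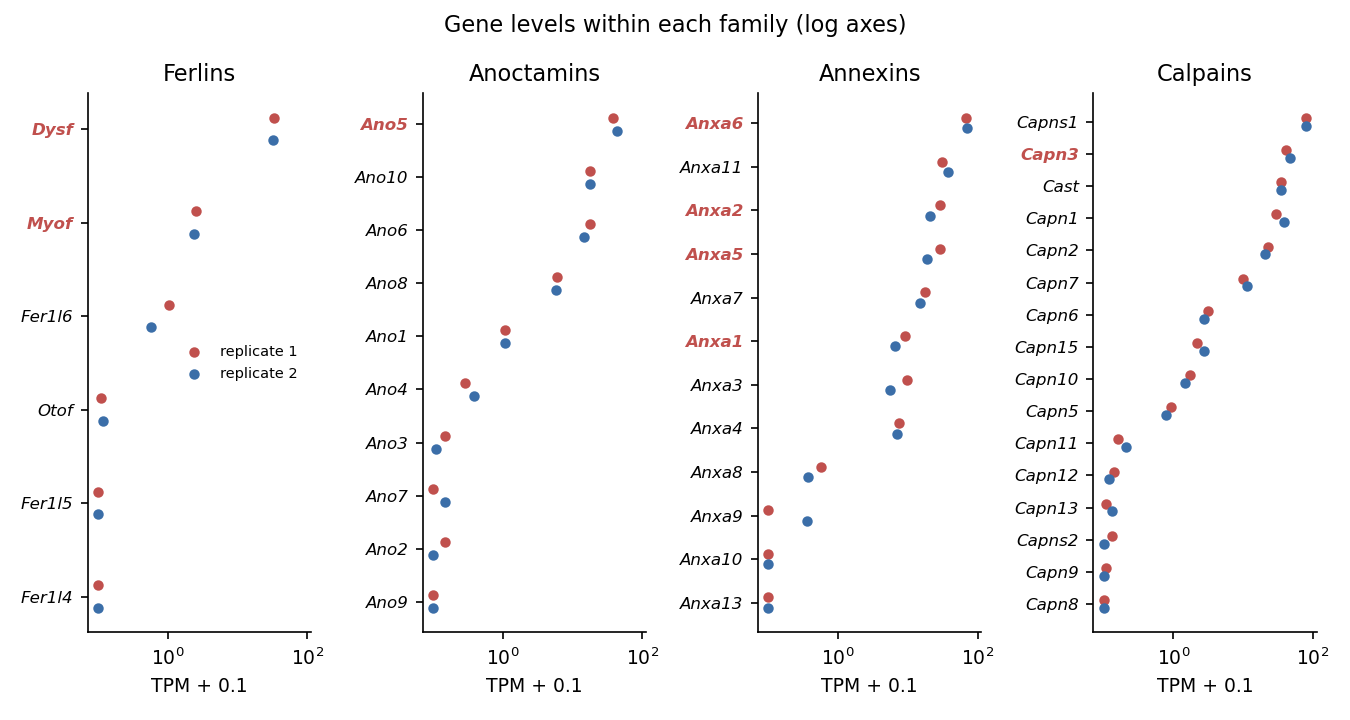
Level of every ferlin, anoctamin, annexin and calpain family gene as TPM + 0.1 on log axes, with replicate 1 in red above replicate 2 in blue and the membrane repair genes in bold red. Dysf leads the ferlins, Ano5 the anoctamins and Anxa6 the annexins, while Capn3 stands below the shared subunit Capns1.

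Anxa6 encodes an annexin with a doubled core and was the leading annexin of this muscle. It lies on chr11:54979108-55033445, minus strand, and had 67.1 TPM in replicate 1 and 71.4 in replicate 2 (69.2 ± 3.01, SD, n = 2). Its log2 ratio was -0.09, and 0.04 in the second transcript table, so its direction turned with the table used. Anxa6 carried 36.4% ± 3.79 of the TPM of 12 annexins, ahead of the non-member Anxa11 with 18.03% ± 3.91.

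The transcripts Anxa6-202 and Anxa6-201 share their ends and differ by the 18 bases of exon 21 printed above. Anxa6-202, with the exon, had 49.5 TPM in replicate 1 and 50.5 in replicate 2. Anxa6-201, without it, had 17.2 and 19.8 TPM. The exon was thus in 74.2% of coding Anxa6 TPM in replicate 1 and 71.8% in replicate 2, and in 77.6% and 77.2% by the second transcript table.

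Anxa2 binds S100a10 as a heterotetramer and links phospholipid to actin. It lies on chr9:69453620-69491795, plus strand, and had 29.2 TPM in replicate 1 and 20.4 in replicate 2 (24.8 ± 6.19, SD, n = 2). Anxa5, the annexin used to stain exposed phosphatidylserine, lies on chr3:36448923-36475894, minus strand. Anxa5 had 28.5 TPM in replicate 1 and 18.7 in replicate 2 (23.6 ± 6.87). Anxa1, which also has an anti-inflammatory role, lies on chr19:20373428-20390944, minus strand, and had 9.05 TPM in replicate 1 and 6.53 in replicate 2 (7.79 ± 1.78). All 3 were higher in replicate 1 with intervals apart. Their log2 ratios kept that sign in each of 9 other settings, at 0.36 to 0.81 for Anxa2, 0.50 to 0.83 for Anxa5 and 0.25 to 0.68 for Anxa1. Scaling by the ERCC counts moved the median of all tested genes to -0.16 and the second transcript table moved it to 0.11.

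The transcript forms of these 3 annexins were few. Anxa2-201 held 98.1% of Anxa2 TPM in replicate 1 and 97.2% in replicate 2. In the second transcript table it had 38.5 and 27.5 TPM, and the shorter Anxa2-204 had 7.98 TPM in replicate 1 and was listed at 0 in replicate 2. Anxa5-201 held 76.4% of Anxa5 TPM in replicate 1 and 72.5% in replicate 2. The rest was Anxa5-202, a retained-intron form of 567 bases with 8.12% of Anxa5 counts in replicate 1 and 9.81% in replicate 2. The second transcript table gave Anxa5-202 only 6.36% of Anxa5 TPM in replicate 1 and listed it at 0 in replicate 2. Anxa1 was shared between Anxa1-201, with 45.5% and 53.6% of its TPM, and Anxa1-208, with 44.2% and 42.4%. Both have the same coding length of 1038 bases, so this split lies outside the coding part.

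Of the 8 annexins that are no members of the set, 4 were tested and Anxa3, with 9.52 TPM in replicate 1 and 5.38 in replicate 2, was higher in replicate 1 with intervals apart (log2 ratio 0.81). Anxa11 was higher in replicate 2 with intervals apart, at 30.4 TPM in replicate 1 and 38.0 in replicate 2 (log2 ratio -0.32). Anxa7 had 17.5 and 14.9 TPM and Anxa4 7.37 and 6.79 TPM, with overlapping intervals. Anxa8 and Anxa9 were under 0.5 TPM, and Anxa10 and Anxa13 were listed at 0 in both animals.

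Among 22 genes listed here as possible partners in membrane repair, 19 were higher in replicate 1, 6 of them with intervals apart. In replicate 2, 1 was higher with intervals apart. Of all tested genes, 9.39% were higher in replicate 1 with intervals apart and 9.5% in replicate 2. How many tested genes were higher in replicate 1 at any difference was not counted. None of the 22 reached 2-fold with intervals apart, which 2.21% of tested genes did. Their median log2 ratio was 0.10, beside -0.0049 over all tested genes, whose quartiles were -0.17 and 0.20. S100a10, the partner of Anxa2, had 35.7 TPM in replicate 1 and 20.5 in replicate 2 (log2 ratio 0.80). S100a11, the partner of Anxa1, had 25.1 TPM in replicate 1 and 17.7 in replicate 2 (log2 ratio 0.50). S100a6 had 48.9 and 31.3 TPM. Ahnak, a giant scaffold that binds the Anxa2 complex and dysferlin, had 84.7 TPM in replicate 1 and 69.3 in replicate 2. Bin1, which shapes the T-tubule membrane, was the gene higher in replicate 2, at 217 TPM in replicate 1 and 244 in replicate 2. Cav3, the muscle caveolin, had 38.2 and 36.2 TPM, Cavin1 72.3 and 60.0 TPM, and Syt7, a calcium sensor of lysosome exocytosis, 1.10 and 0.940 TPM.

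Markers of several non-fibre cell types moved in the same direction as Anxa1, Anxa2 and Anxa5. Of all tested genes, 9.39% were higher in replicate 1 with intervals apart, and the intervals narrow as reads increase. All 9 fibroblast markers were higher in replicate 1 with intervals apart, with a summed level of 1803 TPM in replicate 1 and 943 in replicate 2. Col1a1 led them at 730 and 326 TPM. All 8 tendon cell markers were higher in replicate 1, 7 of them with intervals apart, at a summed 162 TPM in replicate 1 and 106 in replicate 2. Of 10 macrophage markers 8 were tested and higher in replicate 1, 6 with intervals apart, at a summed 101 and 53.4 TPM. All 9 Schwann cell markers were higher in replicate 1, 8 of them with intervals apart. No fibroblast, tendon cell, macrophage or Schwann cell marker was listed at 0 in both animals.

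Smooth muscle and pericyte markers were mixed. Of 7 tested, 4 were higher in replicate 1, 3 of them with intervals apart, and 3 were higher in replicate 2, none with intervals apart. Their median log2 ratio was 0.06, and the list of 8 summed to 148 TPM in replicate 1 and 116 in replicate 2. The remaining lists did not share the direction of the fibroblast, tendon cell, macrophage and Schwann cell markers. Of all tested genes, 9.5% were higher in replicate 2 with intervals apart. Of 8 endothelial markers, none was higher in replicate 1 with intervals apart and 2 were higher in replicate 2, at a summed 73.7 TPM in replicate 1 and 83.4 in replicate 2. The 6 tested adipocyte markers were all higher in replicate 2, at a summed 109 TPM in replicate 1 and 138 in replicate 2 for the list of 8. Satellite cell markers summed to 22.9 TPM in replicate 1 and 22.04 in replicate 2, with none apart. Of the 10 muscle fibre markers, 4 were apart and higher in replicate 1 and 5 in replicate 2. The part of any of these cell types in the difference of Anxa1, Anxa2 and Anxa5 was not tested.

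**Figure D5:**
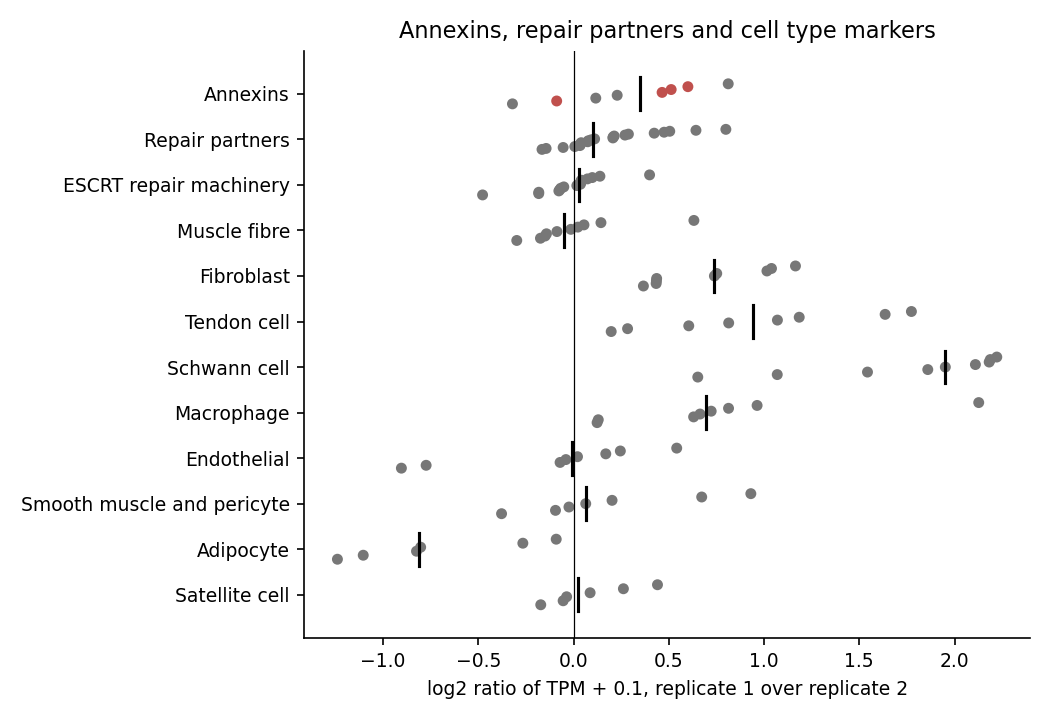
Log2 ratio of TPM + 0.1, replicate 1 over replicate 2, for each tested gene of 12 lists, with membrane repair genes in red and the list median as a black bar. The annexin members other than Anxa6 lie between 0.46 and 0.60, the fibroblast median at 0.74, the tendon cell median at 0.94, the Schwann cell median at 1.95 and the muscle fibre median at -0.05.

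Capn3 lies on chr2:120456019-120504913, plus strand, and had 41.6 TPM in replicate 1 and 46.5 in replicate 2 (44.1 ± 3.46, SD, n = 2). Its log2 ratio was -0.16 with intervals apart. The annotation has Ganc, an alpha-glucosidase gene on the same strand, overlap the start of the Capn3 gene, with 13.7 TPM in replicate 1 and 16.5 in replicate 2. The leading transcript Capn3-202 starts at 120463579, past the end of Ganc at 120461700, and held 95.1% of Capn3 TPM in replicate 1 and 95.6% in replicate 2.

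The inserts that set Capn3 apart from the ubiquitous calpains were present in nearly all of its RNA. Exon 6, which encodes the insert within the protease core that contains autolysis sites, was in 100% of coding Capn3 TPM in both animals. Exons 15 and 16, which encode the insert with the titin-binding and nuclear-signal region, were in 99.0% in replicate 1 and 99.4% in replicate 2. The second transcript table gave 96.9% and 98.2% for exons 15 and 16. Transcripts from a downstream start, at 120476918 to 120476976, which lack exons 15 and 16, carried 0.975% of coding TPM in replicate 1 and 0.603% in replicate 2.

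Within a list of 16 calpain genes that counts the shared subunits and the inhibitor, Capn3 carried 18.9% ± 0.826 of the summed TPM. The shared regulatory subunit Capns1 had 80.7 TPM in replicate 1 and 79.5 in replicate 2. Cast, the calpain inhibitor calpastatin, had 35.1 and 34.5 TPM. The ubiquitous Capn1 had 29.7 TPM in replicate 1 and 38.6 in replicate 2 (log2 ratio -0.38, intervals apart), and Capn2 had 22.4 and 20.7 TPM. Capn1 and Capn3 were thus both higher in replicate 2, and none of the 8 other tested genes of the list had intervals apart. Over all tested genes, 18.9% had intervals apart. Capn8 was listed at 0 in both animals.

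By distance in log2(TPM + 0.1) over the libraries, the protein-coding gene nearest to each member was Set for Dysf, C2cd3 for Myof, Shisa4 for Trim72, Usp19 for Ano5, Cope for Capn3, Smarcd3 for Anxa6, Apoe for Anxa2, Nucb1 for Anxa5 and Abcg2 for Anxa1. Apoe had 29.6 TPM in replicate 1 and 20.8 in replicate 2, beside the 29.2 and 20.4 TPM of Anxa2. Between 4 genes, for Anxa2, and 67 genes, for Myof, lay within 0.1 of a member. This likeness rests on 2 libraries and says only that the levels are close. No stretch of 100 bases of any member's leading transcript was found in the M21 transcripts of another gene, so an exact match of that length to those transcripts points to 1 gene.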

How the data were processed

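Each library had a gene table, a first transcript table and a second transcript table. Per the file headers and the notes deposited beside the files, all used mouse build mm10 with annotation M21; the gene and first transcript tables came from transcriptome alignments, and the second was made from reads with an index. Neither aligner nor quantifiers are given in the sources used here. The authors deposited expected counts, TPM (per length, scaled to 1 total over all features), FPKM, and lower and upper credibility bounds, a signal on the TPM scale of unstated level. The deposited percent of a gene's TPM in each transcript was recomputed here from TPM, with Wilson 95% intervals for shares of counts. The Wilson intervals treat expected counts as whole reads and leave out the uncertainty of their assignment.

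The members and lists were chosen with earlier results of these data known. Ratios are log2(TPM + 0.1), replicate 1 over replicate 2, a scale that understates the ratios of low genes. A gene was tested at a mean expected count of at least 50 and said to differ at 2-fold with deposited intervals that do not overlap. These criteria are no test over animals, and the deposited intervals cover counting and read assignment only. An exon's share is the TPM of coding transcripts that include it over that of all coding transcripts spanning it. All 9 members were named, with transcripts at 10% or more of a member's TPM in both libraries or differing in a coding exon, 1 nearest gene per member, and list genes by level, ratio or a listing at 0, of which those that bear on the members are given. All 166 list symbols were found. RefSeq promoter windows (GRCm38.p6) were found for 8 of the 9 members. A count of 0 allows up to 3 counts, or 0.0812 CPM in replicate 1 and 0.0774 CPM in replicate 2. Alternatives used edgeR 4.0.16 and DESeq2 1.42.0 for scaling factors only, in R 4.3.3; other steps used Python 3.11.15 with pandas 2.3.3.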

Additional observations from a re-analysis of the deposited data

How the results depend on the processing

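None of the 9 genes met the 2-fold criterion with intervals apart under any of the 10 other settings tried. A pseudocount of 1, no minimum count and a minimum mean count of 200 could not have added a member. Every member had a mean expected count of at least 362, and a larger pseudocount only shrinks ratios. The count over all genes was 257, and it was 125 with a pseudocount of 1, 394 with no minimum count and 140 with a minimum mean count of 200. The summed level of the 9 genes was 329 TPM, with 323 and 336 TPM when either replicate was left out. It was 275 in FPKM, 456 TPM in the second transcript table, 799 TPM after rescaling to nuclear protein-coding genes and 307 TPM over protein-coding transcripts only, the last chosen after seeing the data. The median log2 ratio was 0.09, and it was 0.22 in the second transcript table, 0.16 after rescaling and -0.067 with ERCC scaling, where Dysf and Trim72 also turned negative. In the second transcript table and over protein-coding transcripts, 7 of the 9 genes kept their place in the order, as the mean of Anxa2 passed that of Dysf through replicate 1. The leading transcript of the median gene, Anxa6-202, held 72.2% of its gene's TPM, 70.7% and 73.7% with either replicate left out and 76.7% in the second transcript table. The cause of these shifts was not tested. No paired analysis was possible because the libraries form 1 group. Counts limit Anxa1 and Myof, at 362 and 388 mean expected counts, and 2 animals limit every statement.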

Other observations

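RNA of the ESCRT proteins, which shed damaged pieces of plasma membrane in cultured cells, was also detected, and 15 of 16 listed genes had at least 1 TPM in both animals. Their summed level was 231 TPM in replicate 1 and 233 in replicate 2, and their median log2 ratio was 0.03. Pdcd6, the calcium sensor that recruits the complex, had 8.26 TPM in replicate 1 and 6.24 in replicate 2. It was the 1 gene of the list with intervals apart, which 18.9% of all tested genes had. Chmp4b, the main filament subunit, had 42.2 and 41.2 TPM, and its paralog Chmp4c had 0.270 and 0.320 TPM. Vps4a, an ATPase that disassembles the filaments, had 23.6 TPM in replicate 1 and 24.8 in replicate 2.

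Of the membrane fusion proteins in the repair list, Stx4a had 19.7 TPM in replicate 1 and 19.2 in replicate 2, Snap23 had 16.9 and 16.5 TPM, and Vamp3 had 20.8 and 19.8 TPM. Vamp2 had 12.6 TPM in replicate 1 and 10.8 in replicate 2, with a log2 ratio of 0.21, and Vamp7 had 3.85 and 3.75 TPM. All 5 had overlapping intervals.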
